A study of Homo sapiens with 6 samples.

Results

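The genes described here encode surface antigens by which myeloid blasts and leukaemic stem cells are recognised: CD34, CD33, CD38, PROM1, CD44, CD47, CLEC12A, CD96, HAVCR2 and NCAM1. They are named by a list of symbols that sets no condition on measured values, and all 10 were found among the 27576 genes of the deposited table. RNA sequencing had been performed on Kasumi-1, an established line from acute myeloid leukaemia in which t(8;21) joins RUNX1 to RUNX1T1. One group of 3 libraries came from cells given recombinant human IL-10 at 10 ng/ml, and the other group of 3 came from control cells given 0.5% BSA, both for 72 h. All cells were grown in RPMI1640 medium with 20% FBS. The comparison asks which transcripts differ after exposure to IL-10, and nothing in the labels states whether replicates were grown as separate cultures. The p-values therefore reflect library-to-library spread alone, possibly technical. The model is 1 cell line, and RNA levels do not measure antigen at the cell surface.

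Blasts in acute myeloid leukaemia are classified by antigens that normal haematopoiesis uses in sequence. CD34 marks stem and progenitor cells, CD38 appears on more committed progenitors, and CD33 is a myeloid sialic acid-binding lectin. CD44, CD47, CLEC12A, CD96 and HAVCR2 (the gene of TIM-3) have each been used to mark or target leukaemic stem cells, while NCAM1 (the gene of CD56) is found on the blasts of some patients with t(8;21) leukaemia.

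Values are reads per gene scaled by each library's size factor, called normalised read counts here. Recovered depth was 20750115 to 23077693 reads in the IL-10 libraries and 22429270 to 24222897 reads in the control libraries. The deviation of IL-10 replicate 2 from the mean of the other 5 libraries followed base composition. Fold changes of the antigens are given with and without this library. How far the other libraries followed base composition is not given here. Markers of the line and of myeloid blasts were found in all 6 libraries, some at uneven levels. RUNX1T1 had 3071 to 3874 in the IL-10 libraries and 3650 to 3878 in the control libraries. MPO ranged from 66945 to 160649 over the 6 libraries, AZU1 from 422 to 1663 and ELANE from 4.70 to 159. Some genes typical of liver were higher in replicate 2 of both groups than in the other libraries. ALB had 31.7 in IL-10 replicate 2 and 112 in control replicate 2, and was at most 0.890 elsewhere. Of the same list, SERPINA1 had 879 to 1664 over the 6 libraries, and TTR and FGB were at most 2.98 in any library. In 21946 genes tested with limma, 0 passed an adjusted p of 0.05 (0.0%). At an unadjusted p under 0.05 there were 344.

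The antigens spanned a wide range of transcript levels, which are compared per kilobase of exon. CD44, the hyaluronan receptor, averaged 1953 normalised reads per kb over the 6 libraries, at percentile 98.0 of the genes tested, and CD34 averaged 1384, at percentile 97.0. CD33 followed at 314 per kb, percentile 84.2, and CD47 at 162 per kb, percentile 74.1. The immune receptors HAVCR2 and CD96 stood at 50.3 and 28.4 per kb. CLEC12A reached 13.9 per kb and CD38 only 4.94 per kb, at percentile 24.7. Neighbours in this order did not overlap over the 6 libraries, except CD96 with CLEC12A and CLEC12A with CD38. CLEC12A lay above CD38 in 5 of 6 libraries. The same order was found with the length of the principal transcript in place of all exons.

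**Figure D1:**
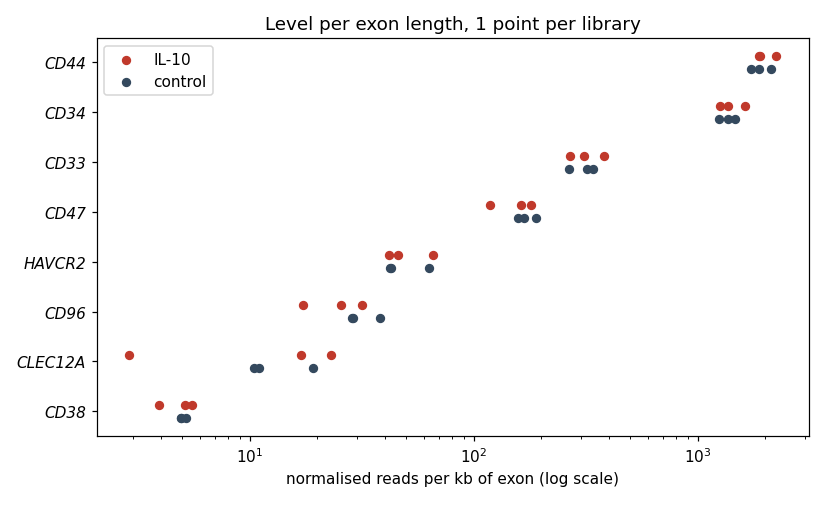
Normalised reads per kilobase of exon (log axis) for the 8 antigens that passed the filter, with 1 point per library, IL-10 libraries above control libraries in each row. CD44 and CD34 lie far right, CD38 below 10, and CLEC12A has 1 IL-10 library, at 2.89, apart from its others.

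PROM1 and NCAM1 were near zero in every library. PROM1, the gene of the pentaspan membrane protein CD133, had 1, 0 and 0 reads in IL-10 replicates 1 to 3 and 3, 0 and 1 reads in control replicates 1 to 3. NCAM1, a neural cell adhesion molecule, had 0, 1 and 1 reads in IL-10 replicates 1 to 3, and 0, 0 and 1 reads in control replicates 1 to 3. No more than 3 reads were found in any library for either gene. Neither reached a value of 1 in 3 or more libraries, so neither was tested with limma. A floor of 3 reads corresponds to 2.67 to 3.53 normalised reads per library. This floor and the counting intervals below cover counting error only. The other 8 antigens passed the filter, which asked for 3 or more libraries at 1 or higher.

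The stem and progenitor antigens CD34 and CD38 had overlapping values in both groups. CD34 is a sialomucin of stem and progenitor cells, at chr1:207880972-207911402 on the minus strand (GRCh38, GENCODE 29). It had 11577, 14919 and 12547 normalised reads in IL-10 replicates 1 to 3, and 11415, 13483 and 12612 in control replicates 1 to 3. The highest value in each group was replicate 2. CD34 averaged 13014 ± 1719 in IL-10 cells and 12504 ± 1038 in control cells (SD, n = 3 each), a log2 fold change of 0.05 (limma 95% interval -0.33 to 0.44, adjusted p = 0.986). CD38, an ectoenzyme that degrades NAD, lies at chr4:15778275-15853230. It had 35.3, 27.0 and 38.0 normalised reads in IL-10 replicates 1 to 3, and 35.4, 33.8 and 33.8 in control replicates 1 to 3. IL-10 replicate 2 was lowest and the groups overlapped, with a log2 fold change of -0.05 (limma 95% interval -0.65 to 0.55, adjusted p = 0.989). The fold change was 0.09 without that library. In bulk RNA, fewer cells that express a gene and less RNA per cell cannot be told apart.

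CD34 and CD38 are read together in flow cytometry, where CD34+CD38- cells mark the most immature compartment. Their ratio per kilobase was taken after 1 was added to each normalised read count, which lowers it slightly. The ratio of CD34 to CD38 was then 237, 396 and 239 in IL-10 replicates 1 to 3. It was 233, 288 and 269 in control replicates 1 to 3. On the log2 scale it averaged 8.14 ± 0.42 in IL-10 cells and 8.04 ± 0.16 in control cells (SD, n = 3 each). The difference of 0.10 had a two-sided exact permutation p of 0.8, where 20 arrangements allow no p below 0.1. Without IL-10 replicate 2 it was -0.14 (exact permutation p = 0.4).

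CD44 and CD33 are abundant, and their groups overlapped. CD44 is at chr11:35138870-35232402. It had 18709, 18999 and 22352 normalised reads in IL-10 replicates 1 to 3, and 18659, 17342 and 21156 in control replicates 1 to 3. Replicate 3 was highest in both groups. CD44 averaged 20019.8 ± 2025 in IL-10 cells and 19052 ± 1937 in control cells (SD, n = 3 each), a log2 fold change of 0.07 (limma 95% interval -0.31 to 0.45, adjusted p = 0.982). CD33, at chr19:51225064-51243860, had 1859.6, 2280.2 and 1599 in IL-10 replicates 1 to 3, and 1904, 2031 and 1584 in control replicates 1 to 3. Replicate 3 was the lowest of each group and replicate 2 the highest. CD33 averaged 1913 ± 344 in IL-10 cells and 1839.5 ± 230 in control cells (SD, n = 3 each), a log2 fold change of 0.05 (limma 95% interval -0.37 to 0.47). Without IL-10 replicate 2 the log2 fold change was -0.09 for CD33, -0.05 for CD34 and 0.11 for CD44. Each was smaller in size than the half-width of the interval above, which was fitted to all 6 libraries.

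CD47, the signal that restrains phagocytosis by engaging SIRPA, is at chr3:108043094-108091862. It had 1338, 972 and 1473 normalised reads in IL-10 replicates 1 to 3, and 1379.7, 1289 and 1565 in control replicates 1 to 3. Only IL-10 replicate 2 lay below every control library. CD47 averaged 1261 ± 259 in IL-10 cells and 1411 ± 141 in control cells (SD, n = 3 each), a log2 fold change of -0.18 (limma 95% interval -0.62 to 0.26). Without IL-10 replicate 2 the fold change was -0.00 on the log2 scale.

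Among the immune receptors, HAVCR2 is an inhibitory receptor of T cells and a marker of leukaemic stem cells, at chr5:157085832-157142869. It had 175, 159 and 251 normalised reads in IL-10 replicates 1 to 3, and 160.2, 163 and 240.2 in control replicates 1 to 3. Replicate 3 was the highest in both groups. HAVCR2 averaged 195 ± 49.1 in IL-10 cells and 188 ± 45.4 in control cells (SD, n = 3 each), a log2 fold change of 0.05 (limma 95% interval -0.52 to 0.62), and of 0.18 without IL-10 replicate 2. CD96 belongs to the immunoglobulin superfamily, binds PVR and lies at chr3:111292719-111665750. It had 147, 99.9 and 183 in IL-10 replicates 1 to 3, and 165, 166 and 219 in control replicates 1 to 3. IL-10 replicate 2 was the lowest library and the groups overlapped. Of the 8 antigens tested, CD96 had the fold change farthest from 0 in limma. It averaged 144 ± 41.8 in IL-10 cells and 183 ± 30.8 in control cells (SD, n = 3 each), a log2 fold change of -0.38 (limma 95% interval -0.98 to 0.21, adjusted p = 0.982). The difference was -0.14 without IL-10 replicate 2. These genes are also expressed by T and NK cells, whose 10 markers summed to 2384 to 3567 in the IL-10 libraries and 2223 to 2916 in the control libraries. CD3D, at 1593 to 2560 over the 6 libraries, and CD247, at 496 to 902, held most of that sum, and CD3E (31.8 to 65.5) and NKG7 (12.8 to 31.1) were found in every library. TRAC was at most 18.0, GNLY at most 5.70, and CD2, CD3G, KLRF1 and NCR1 were at 0 in at least 1 library. Of these markers 9 were tested and 0 passed the threshold, and their part in the result was not tested.

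CLEC12A, an inhibitory C-type lectin that carries an ITIM, had the widest spread. At chr12:9951316-9995694, it had 74.8, 9.40 and 55.1 normalised reads in IL-10 replicates 1 to 3, and 62.4, 35.8 and 33.8 in control replicates 1 to 3. IL-10 replicate 2 lay below all other libraries, on 8 reads. CLEC12A averaged 46.4 ± 33.6 in IL-10 cells and 44.0 ± 16.0 in control cells (SD, n = 3 each), a log2 fold change of -0.29 (limma 95% interval -1.81 to 1.22). Without IL-10 replicate 2 it was 0.59, and on recovered reads with edgeR 0.09. CLEC12A and CD33 are also carried by monocytes, and monocyte markers were in part present. FCGR1A had 713 to 983 normalised reads over the 6 libraries, CSF1R 117 to 206, VCAN 57.6 to 233, LYZ 22.2 to 98.4 and ITGAM 25.9 to 46.5. CD14 and S100A12 were at most 2.67, and the part of these markers in the result was not tested.

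**Figure D2:**
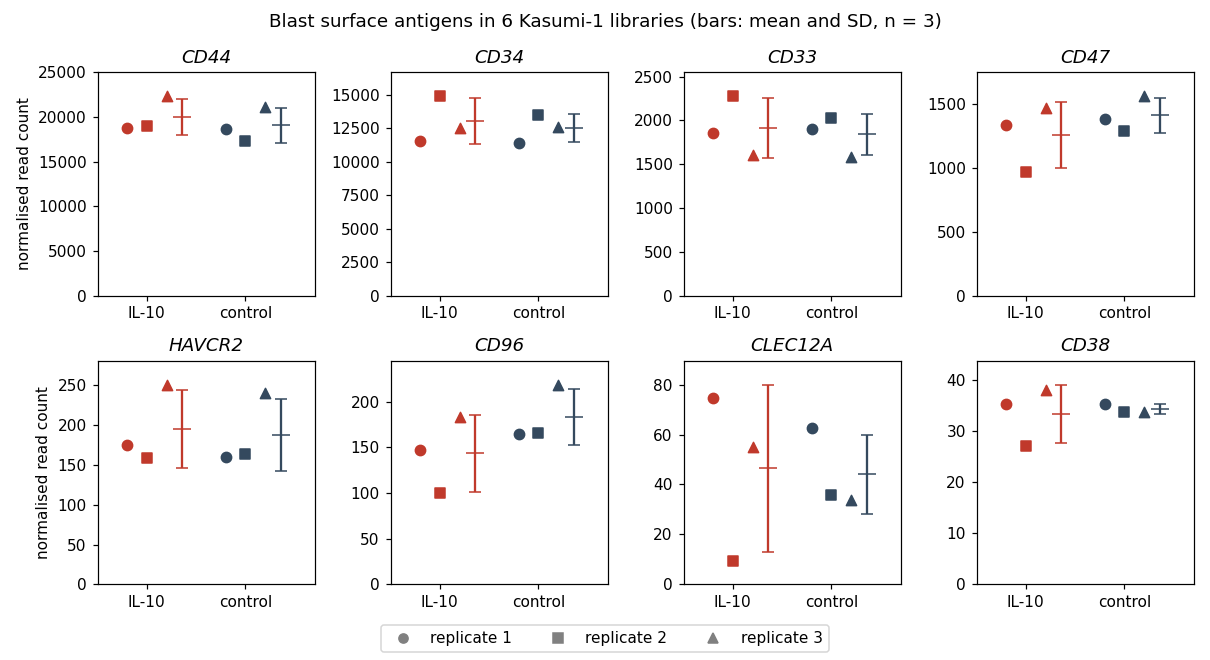
Normalised read counts of the 8 antigens tested, with 1 point per library, IL-10 left and control right, marker shape by replicate number, and bars for the mean and SD (n = 3). The groups overlap in every panel, and CLEC12A shows 9.40 in IL-10 replicate 2.

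Of the 8 antigens tested, 0 had an adjusted p under 0.05 in limma, and the adjusted p ranged from 0.982 to 0.989. The unadjusted p was under 0.05 in 0 of 8, also with edgeR and DESeq2 on recovered reads, where all 10 could be tested. The fold change was positive in 4 and negative in 4, with a median of -0.00 on the log2 scale, against 0.02 for all genes. It was, without IL-10 replicate 2, again positive in 4 and negative in 4, with a median of 0.04. These signs depended on the scaling. With libraries scaled to equal totals, CD44 stood at -0.03, and CD34, CD33 and HAVCR2 at -0.05, while the other antigens tested stayed negative. The median over all genes was then -0.08. As deposited, IL-10 replicate 2 had a normalised total of 2.71e+07, against 2.16e+07 to 2.23e+07 in the other libraries. The groups did not overlap in 0 of 8 antigens, against 5.87% of all genes tested. The 95% interval of an antigen reached a median of 0.51 on the log2 scale to each side of its fold change.

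The antigens' spread over the 6 libraries was divided between replicate number and treatment. The share of the sum of squares between replicate numbers was 52.8% to 97.6% across the 8 antigens, and the share between treatments was 0.829% to 30.5%. The median replicate share was 78.1% over the antigens and 54.5% over all genes tested, and the median treatment share was 3.53% over the antigens and 10.5% over all genes. With 3 replicate numbers and only a pair of treatments, the replicate share has more degrees of freedom and tends to be the larger. The replicate share exceeded the treatment share in 8 of 8 antigens and in 81.8% of all genes tested. HAVCR2 had the highest replicate share and CD96 the highest treatment share. No antigen passed a limma F test of the replicate number, at adjusted p 0.216 to 0.851, where 0.697% of all genes passed.

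Within same-numbered libraries, the ratio of IL-10 to control differed from 1 mostly in pair 2. In pair 1 the exact counting interval left out 1 in 0 of 8 antigens, against 11.8% of all genes. In pair 2 it did so in 6 of 8, all but HAVCR2 and CD38, against 44.7% of all genes. In pair 3 it did so for CD44 and CLEC12A, against 10.1% of all genes. CD96 had log2 ratios of -0.16, -0.73 and -0.26 in pairs 1 to 3, below 0 in all 3. CD47 was also below 0 in each, at -0.04, -0.41 and -0.09. CLEC12A had 0.26, -1.93 and 0.70, with pair 2 in the opposite direction. Ratios of the abundant antigens were close to 0 on the log2 scale. CD44 had log2 ratios of 0.00, 0.13 and 0.08 in pairs 1 to 3, above 0 in all 3 before rounding. CD34 had 0.02, 0.15 and -0.01, and CD33 had -0.03, 0.17 and 0.01. HAVCR2 had 0.13, -0.04 and 0.06, and CD38, on 23 to 40 reads per library, had -0.01, -0.32 and 0.17. Intervals are narrower for genes with more reads, so a ratio near 0 can leave out 1 in CD44 and not in CD38.

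**Figure D3:**
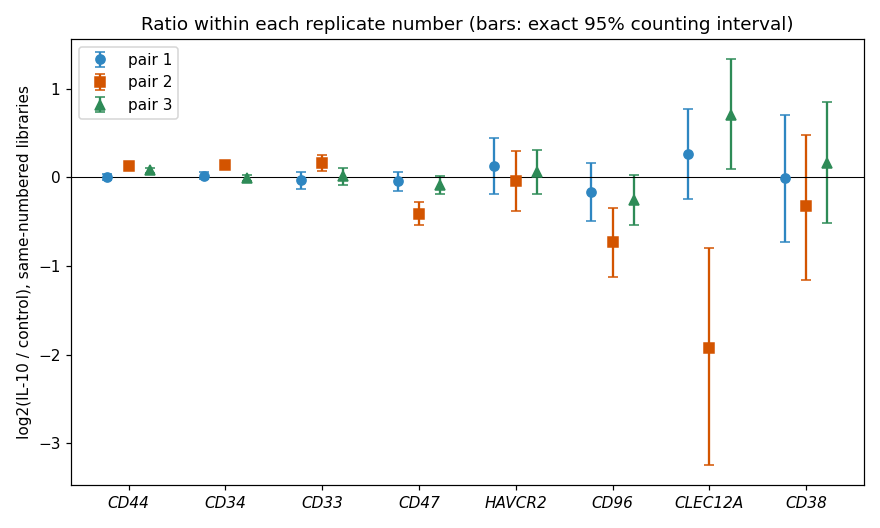
Log2 ratio of the IL-10 to the control library with the same replicate number, with exact 95% counting intervals. Most points of pair 2 lie away from 0, and CLEC12A reaches -1.93 there.

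IL-10 replicate 2 followed the GC content of transcripts. Its log2 difference from the mean of the other 5 libraries had a Spearman correlation of 0.770 with GC content. The correlation was taken across 11576 genes of mean at least 50, which share the library and are not independent. CLEC12A, of 39.3% GC, stood at -2.29, CD96, of 42.7% GC, at -0.80, and CD47, of 42.1% GC, at -0.53. CD38, of 42.4% GC, stood at -0.37, HAVCR2, of 46.2% GC, at -0.29 and CD44, of 45.3% GC, at -0.04. CD34, of 47.0% GC, stood at 0.28 and CD33, of 52.5% GC, at 0.35. Each antigen was also set beside genes of mean at least 50 within 1 GC point. CLEC12A averaged 45.2 and had only 8 reads in IL-10 replicate 2, so its neighbours were better counted. Among 917 genes near CLEC12A the median was -0.58, and 0.218% lay lower than CLEC12A. Among 997 genes near CD96 the median was -0.30, and 11.2% lay lower than CD96. Among 765 genes near CD33 the median was 0.36, and 48.5% lay lower than CD33. With GC and length corrected in each library, the log2 fold change was -0.28 for CD96, -0.14 for CLEC12A and -0.08 for CD47, each nearer 0 than uncorrected. It was 0.12 for CD44, 0.08 for CD34 and 0.08 for HAVCR2, each farther from 0. The sign turned for CD33, at -0.03, and for CD38, at 0.07. Values were taken with the GC of the principal transcript.

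**Figure D4:**
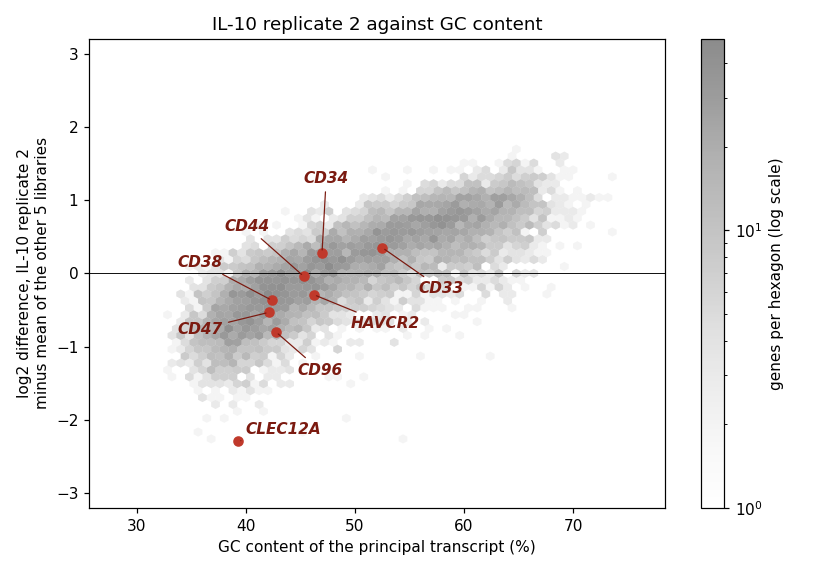
Log2 difference of IL-10 replicate 2 from the mean of the other 5 libraries, against GC content of the principal transcript (%), with grey hexagons for all genes of mean at least 50 and red points for the antigens. Most genes of low GC lie below 0, and CLEC12A at -2.29 lies at the lower edge of all genes drawn; CLEC12A and CD38 have means under 50.

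The promoters of CD96 and CLEC12A are shown because they alone among the members with an entry held motif matches, and that of CD34 as an abundant antigen with none. Sequences are from RefSeq on GRCh38.p14 and give the 250 bases before a RefSeq transcript start, in gene direction. CD34 is at chr1:207911126-207911375 (minus strand), CD96 at chr3:111541947-111542196 and CLEC12A at chr12:9971159-9971408 (both plus strand). Capitals mark motif matches on either strand. The RUNX core was searched as TGTGGT. The STAT motif, which is its own reverse complement, was searched as TTCNNNGAA. The GATA core was searched as AGATAA. No 2 matches overlapped.
CD34: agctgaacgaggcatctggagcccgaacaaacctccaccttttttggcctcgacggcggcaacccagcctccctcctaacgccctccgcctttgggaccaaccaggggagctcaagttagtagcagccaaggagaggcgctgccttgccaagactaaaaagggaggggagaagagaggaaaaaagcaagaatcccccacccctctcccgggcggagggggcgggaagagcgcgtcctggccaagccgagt
CD96: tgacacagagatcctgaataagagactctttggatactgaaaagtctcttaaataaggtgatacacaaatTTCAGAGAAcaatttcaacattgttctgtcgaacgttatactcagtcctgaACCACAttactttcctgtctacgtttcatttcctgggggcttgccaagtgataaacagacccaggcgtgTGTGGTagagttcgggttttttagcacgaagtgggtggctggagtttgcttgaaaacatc
CLEC12A: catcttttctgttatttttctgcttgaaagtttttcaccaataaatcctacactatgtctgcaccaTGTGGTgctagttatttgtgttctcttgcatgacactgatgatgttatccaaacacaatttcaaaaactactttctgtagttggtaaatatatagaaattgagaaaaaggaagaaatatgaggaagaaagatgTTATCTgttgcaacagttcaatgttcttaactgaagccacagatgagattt
CD96 had 2 RUNX matches and 1 STAT match, CLEC12A 1 RUNX and 1 GATA match, and CD34 none. Of 34788 promoters, 10.97% held the RUNX core, 6.57% the STAT motif and 9.21% the GATA core. A match is a description only. The TATA box, searched by the letters TATAAA and held by 10.8% of promoters, had no match in these windows. CpG frequency, observed over expected, was 0.59 for CD34, 0.55 for CD96 and 0 for CLEC12A, against a median of 0.556 over all promoters, and was highest in CD47, at 1.04. CD33, CD38, CD44, CD47 and PROM1 held no match to the 4 motifs. HAVCR2 and NCAM1 are named only.

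Genes related to the antigens were described in 4 lists of 82 genes, of which 63 were tested. Of these, 0 passed the adjusted threshold, 42 had a positive fold change, and the groups did not overlap for THBS1 and MSN, against 5.87% of all genes. At an unadjusted p under 0.05 in limma stood 2 of 63, CEACAM1 and THBS1, both with values under 7, against 344 of all 21946 genes. On recovered reads 0 of 68 related genes did so with edgeR or DESeq2. With the replicate block it was 3 of 63 in limma and 1 of 68 in edgeR. When IL-10 replicate 2 was left out, 43 of the 62 genes then tested were positive and 0 passed. Other blast antigens had 12 of 22 positive, with a median log2 fold change of 0.10, and 17 of 22 without IL-10 replicate 2. KIT, the stem cell factor receptor, had 53136, 29296 and 41083 normalised reads in IL-10 replicates 1 to 3, and 54533, 38003 and 41215 in control replicates 1 to 3. The transferrin receptor TFRC averaged 20889 ± 3486 in IL-10 cells and 22461 ± 735 in control cells (SD, n = 3 each). The TGF-beta co-receptor ENG averaged 3226 ± 1264 in IL-10 cells and 2527 ± 82.8 in control cells (SD, n = 3 each). The signs of all 3 turned without IL-10 replicate 2: the log2 fold change was 0.09 in place of -0.14 for KIT, 0.03 in place of -0.12 for TFRC and -0.02 in place of 0.29 for ENG.

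Counter-receptors, ligands and enzymes had 11 of 18 positive and a median of 0.06, but 7 of 18 positive and a median of -0.02 without IL-10 replicate 2. HMGB1, a ligand of TIM-3, averaged 13243 ± 920 in IL-10 cells and 13763 ± 1559 in control cells, and the sialomucin SPN averaged 4728 ± 1237 in IL-10 cells and 4134 ± 202 in control cells (SD, n = 3 each). QPCTL, which modifies CD47 so that SIRPA binds it, averaged 1056 ± 238 in IL-10 cells and 909.7 ± 149 in control cells. Leaving out IL-10 replicate 2 gave a log2 fold change of -0.04 in place of 0.16 for SPN, 0.03 in place of 0.21 for QPCTL and -0.04 in place of -0.05 for HMGB1. Signal partners had 12 of 14 positive and a median of 0.17, and the same count with a median of 0.06 without IL-10 replicate 2. MSN, a linker of CD44 to actin, averaged 40143 ± 8227 in IL-10 cells and 34646 ± 990.4 in control cells, with IL-10 replicate 2 at 49643. GNAI2, an inhibitory G protein subunit, averaged 16253 ± 6122 in IL-10 cells and 13281 ± 895 in control cells. PTPN11, a phosphatase recruited by ITIMs, averaged 9458 ± 1249 in IL-10 cells and 10145.5 ± 85.8 in control cells. With IL-10 replicate 2 left out, the log2 fold change was 0.03 in place of 0.19 for MSN, -0.06 in place of 0.23 for GNAI2 and 0.00 in place of -0.11 for PTPN11. Family relatives had 7 of 9 positive and a median of 0.21, and 7 of 8 with a median of 0.20 without IL-10 replicate 2. CLEC2B averaged 1104 ± 472 in IL-10 cells and 1159 ± 369 in control cells, and SIGLEC10, a relative of CD33, averaged 215 ± 33.7 in IL-10 cells and 178 ± 13.3 in control cells. CD22, a B-cell lectin of the same family, averaged 345 ± 77.7 in IL-10 cells and 301 ± 93.0 in control cells. Over the other 5 libraries the log2 fold change was 0.24 in place of -0.12 for CLEC2B, 0.15 in place of 0.26 for SIGLEC10 and 0.17 in place of 0.21 for CD22. The list medians within pair 2 were 0.06, 0.22, 0.43 and 0.66, and in pairs 1 and 3 they lay between -0.08 and 0.09. The median over all genes within each pair is not given here. In pair 2 the exact counting interval left out 1 in 44.7% of all genes.

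**Figure D5:**
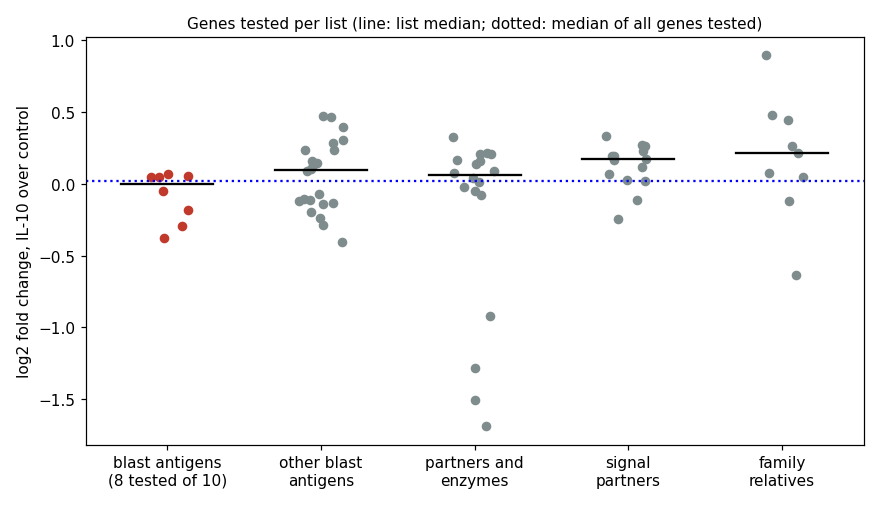
Log2 fold change of IL-10 over control for the tested genes of the antigen list and the 4 related lists, with list medians as lines and the median of all genes (0.02) dotted. The antigen list is centred at -0.00, and all lists straddle 0.

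As a description over the 6 libraries, the gene most like each antigen of mean at least 50 was found among 11604 genes. CD44 was most like FAM234B (Pearson r = 0.990), CD34 like FAM86B1 (0.989), CD33 like MTOR (0.996), CD47 like MCTP1 (0.998), HAVCR2 like SPRY1 (0.992) and CD96 like TMEM69 (0.996). The number of genes above r = 0.9 was 139 for HAVCR2, 212 for CD44, 278 for CD34, 632 for CD96, 1345 for CD33 and 1558 for CD47. All these genes share the 6 libraries, with their depth and base composition. FAM86B1 belongs to a family of near-identical copies, so its counts are uncertain.

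Some antigens share exon bases with other genes, and the strand of counting is not given in the sources used here. CD44 shares 84 bases with CD44-AS1 and CLEC12A shares 107 with CLEC1B, both on the opposite strand. HAVCR2 shares 50 bases with MED7 on the same strand, where MED7 had 173 to 268 normalised reads in the IL-10 libraries and 204 to 259.9 in the control libraries. On chromosome 4, BST1, a relative of CD38 named for its position, lies 39961 bases from CD38 and had 209 per kb, against 4.94 per kb for CD38. PROM1 lies 109845 bases from CD38 on the same chromosome. CD47 and CD96 lie 3200856 bases apart on chromosome 3.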

How the data were processed

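RNA was sequenced from Kasumi-1 cells in 3 IL-10 and 3 control libraries, grouped by their treatment label. The table carries the name FPKM, but the authors deposited a signal: reads counted per gene and then scaled by each library's size factor, as the steps between values show. In each library 100% of values were whole reads within 0.01, and size factors were 0.851 to 1.12. For control replicate 2 the step was 0.994, too close to 1 for an automatic check. Per the submitters' processing notes, edgeR 3.18.1, GRCh38 and hg38 were used, in roles not stated. Aligner, counter, annotation and strand: not given in the sources used here. Of the identifiers, 26883 matched the names table and 27052 matched GENCODE 29.

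Values were transformed as log2(value + 1) and fitted by limma-trend (limma 3.58.1, R 4.3.3) for the 21946 genes that reached 1 in 3 or more libraries. Two-sided p-values were adjusted by Benjamini-Hochberg over these genes, with a threshold of 0.05. Fold changes on this scale understate those of low genes. This was the planned test, and as alternatives edgeR 4.0.16 and DESeq2 1.42.0 were run on the recovered reads. Fits were tested on simulated data. Members and lists were chosen with earlier results of these data known. Named genes are the members, the 3 of highest level per kb in each related list, and the 1 most like each member of mean at least 50. THBS1, CEACAM1 and BST1 were named after their values were seen. Depth was 20750115 to 24222897 reads. Same-numbered libraries had deviations from their group means correlated at 0.367, 0.605 and 0.726 over 11605 genes, each above 0.1, so the numbers were read as pairing the libraries, although the labels give only the shared number. The limma fit and permutation test reported are unpaired, as planned, and fits with the replicate as a block were alternatives.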

Additional observations from a re-analysis of the deposited data

How the results depend on the processing

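In 23 alternatives, 0 of the 8 antigens passed the threshold, the smallest adjusted p being 0.730 for CD96 with sample weights, and 0 related genes passed. The fold change changed sign in 31 of 184 comparisons, in 3 to 8 alternatives for CD44, CD34, CD33, HAVCR2, CLEC12A and CD38, and in none for CD47 and CD96. Over all genes, 0 passed in limma, edgeR and DESeq2, with 344, 380 and 90 at an unadjusted p under 0.05. When the replicate block was fitted to pairs 1 and 3 alone, 11 genes passed on 1 residual degree of freedom, and with edgeR and the replicate block 1 gene passed; none was an antigen, and the cause was not tested. The replicate block changed no other call. Leaving out each library in turn left 0 genes past the threshold. The CD34 to CD38 difference was -0.14 to 0.23 with each library left out, and 0.10 with the replicate block (exact sign-flip permutation p = 0.75). Only 8 arrangements of signs exist for that test, so a small p was not possible. The edgeR fit without control replicate 2 and the limma F test of the replicate number were chosen after seeing the data. CLEC12A and CD38 rest on few reads, which limits their precision.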
